A study of Mus musculus with 2 samples.

Results

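The genes described here are well-known targets of the hypoxia-inducible factors (HIFs) that lie outside glycolysis: Adm, Vegfa, Bnip3, Bnip3l, Ddit4, Ndrg1, Hilpda, Car9, Car12 and P4ha1. They were chosen by name, and every probe set annotated to exactly 1 of these symbols was taken, which gave 18 of 45037 probe sets and 9 of the 10 genes. Bnip3l had 0 probe sets of that kind, because each of the 3 that carry its symbol also carries that of the pseudogene Bnip3l-ps, so no value is given for it. Of the 18 probe sets, 15 passed the filter on low signals used below, and they covered all 9 genes.

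The study compared Neuro2a cells, a mouse neuroblastoma line, transfected with an siRNA against mKIAA1583 (Tmem132a) with the same cells given a control siRNA of no specific target. Total RNA of each was read on 1 Affymetrix Mouse Genome 430 2.0 array, which leaves no spread between replicates to test a difference against, so differences are described by their size. The siRNA dose, its sequence, the time after transfection and the oxygen level of the cultures are not given in the sources used here, and both samples came from 1 cell line. Values are MAS5 signal intensity, a scaled brightness that summarises the probes of a probe set, and differences are log2 ratios with the control siRNA array as the denominator.

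Cells sense oxygen through prolyl hydroxylases that mark the HIF alpha subunits for VHL-dependent breakdown. When oxygen is scarce, or when these enzymes are otherwise slowed, HIF alpha pairs with ARNT and binds short hypoxia response elements near its target genes. Targets outside glycolysis act on blood vessels (Adm, Vegfa), mitochondria and cell survival (Bnip3, Bnip3l), growth control (Ddit4, Ndrg1), lipid storage (Hilpda), acid handling (Car9, Car12) and collagen maturation (P4ha1). Several of them also answer to other pathways: Ddit4 and Vegfa, for example, are known targets of the stress factor ATF4.

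Tmem132a had a signal of 435.6 on the Tmem132a siRNA array and 1825.5 on the control siRNA array (23.9% of the control level), which goes with the sample titles. The free description of the knockdown sample, however, is worded like that of the control sample. The 2% trimmed mean was 500.003 on each array. Of 14 sympathetic neuroblast markers, 13 had a probe set and all 13 passed the filter. All 13 had a log2 ratio below 0, with a median of -0.37, and their summed signal was 57247.4 on the Tmem132a siRNA array and 71732.3 on the control siRNA array. Of the markers of other cell types, 1 of 8 for fibroblasts (Fbln2), 1 of 7 with a probe set for macrophages and leukocytes (Csf1r), 1 of 5 for epithelium (Epcam) and 0 of 6 for endothelium passed the filter. On the Tmem132a siRNA array the summed signals were 739.2 for fibroblasts, 577 for macrophages and leukocytes, 297.2 for epithelium and 243.3 for endothelium. On the control siRNA array they were 1211.7 for fibroblasts, 395.2 for macrophages and leukocytes, 220.8 for epithelium and 225 for endothelium. The table lists no signal of 0, its lowest being 0.2. The part of these differences in the results below was not tested. In RNA of whole cultures, fewer cells of a type and less RNA per cell cannot be told apart.

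The hypoxia targets did not move as 1 block. Lower by at least 1.5-fold on the Tmem132a siRNA array were the peptide hormone gene Adm (2.45-fold), the lipid droplet gene Hilpda (1.91-fold), the carbonic anhydrase gene Car12 (1.86-fold) and Bnip3 (1.64-fold), whose protein sits on mitochondria. Vegfa, Ddit4 and P4ha1 differed by at most 1.08-fold and Ndrg1 by 1.20-fold, and Car9 was 1.48-fold higher at a low signal. Of the 9 genes, 7 had a ratio below 0, where 48.2% of all 10678 measured genes did. At least 1.5-fold lower were 4 of the 9, against 9.11% of all genes, and at least 2-fold lower was 1 of the 9, against 2.44%. At least 1.5-fold higher were 0 of the 9, against 8.82% of all genes, and at least 2-fold higher were 0, against 2.10%. The same shares of all genes stand beside the counts of the other lists below. The median log2 ratio was -0.26 over the 9 genes and 0.02 over all genes. With 9 genes and 1 array per group these counts describe this pair of cultures.

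**Figure D1:**
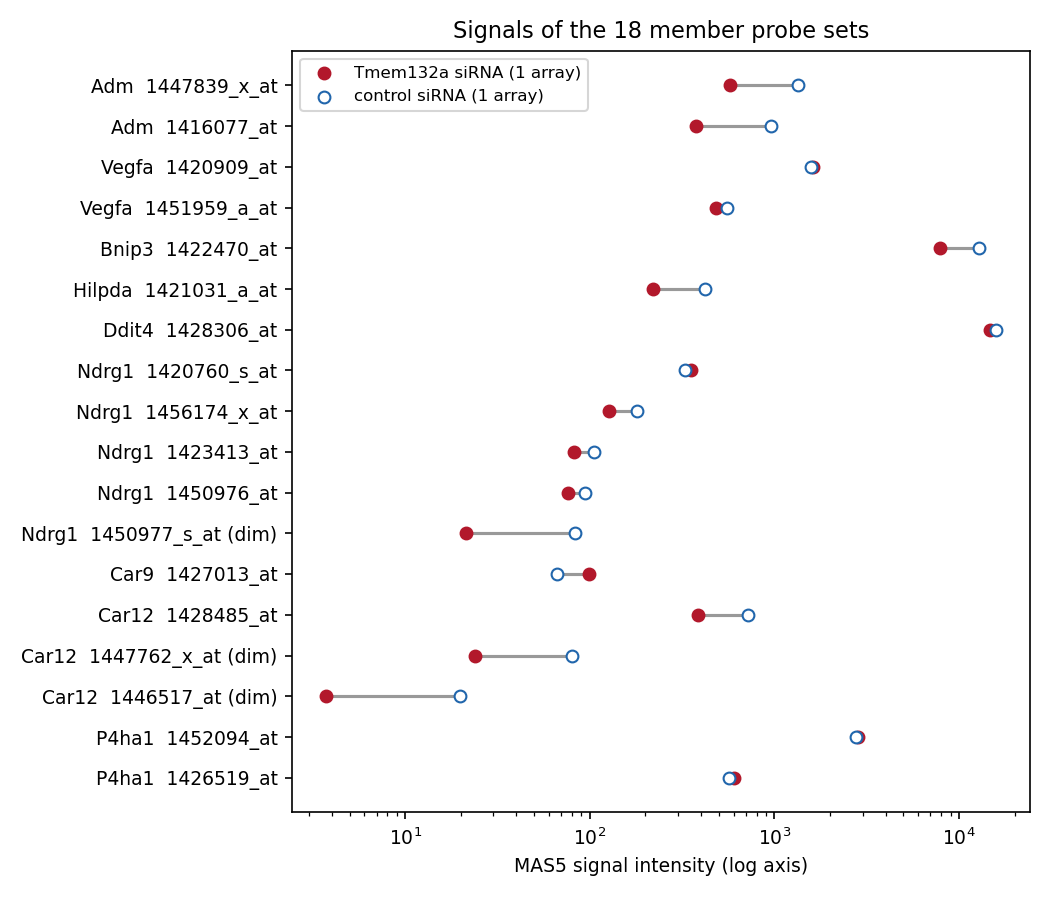
MAS5 signal intensity (log axis) of the 18 probe sets of the 9 genes on the Tmem132a siRNA array (filled) and the control siRNA array (open), 1 array each, with a line joining the pair; probe sets marked dim did not pass the filter. Both Adm probe sets, Bnip3, Hilpda and all 3 Car12 probe sets sit to the left of their control points, while the pairs of Vegfa, Ddit4 and P4ha1 nearly coincide.

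Adm encodes adrenomedullin, a secreted peptide that widens blood vessels and promotes vessel growth, and it differed most among the members. Probe set 1416077_at had a signal of 374 on the Tmem132a siRNA array and 960.6 on the control siRNA array (38.9% of control, log2 ratio -1.36). Probe set 1447839_x_at had 573.5 on the Tmem132a siRNA array and 1336.2 on the control siRNA array (42.9%, -1.22). The probe sets thus gave ratios of the same size, although the suffix of the second marks some probes that may also bind other transcripts. Ratios as low or lower were found for 16 of 3828 probe sets with a mean signal within a factor of 1.41 of the first (0.418%) and for 26 of 3572 for the second (0.728%). By its gene value of -1.29 (SD 0.10 over 2 probe sets), Adm stood at place 107 from the bottom among 10678 genes.

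The genes of adrenomedullin's receptor and relatives were measured only in part. Of 9 with a probe set, 3 passed the filter, with 1 at least 1.5-fold lower and 1 at least 1.5-fold higher. Ramp2, which turns the calcitonin-receptor-like protein into an adrenomedullin receptor, had a signal of 369.4 on the Tmem132a siRNA array and 744.6 on the control siRNA array (-1.01). Calcrl, the gene of that receptor protein, did not pass the filter. Its brightest probe set had 42.2 on the Tmem132a siRNA array and 91.4 on the control siRNA array. Adm2, a related peptide gene, had 782.9 with the Tmem132a siRNA and 503.8 with the control siRNA (0.64).

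Vegfa, the main growth factor for endothelial cells and the best known HIF target of the vessel-forming kind, had nearly the same signal on both arrays. Probe set 1420909_at read 1613.7 on the Tmem132a siRNA array and 1582.2 on the control siRNA array (0.03). Probe set 1451959_a_at read 484 on the Tmem132a siRNA array and 551.5 on the control siRNA array (-0.19). The gene value was -0.08, and 40.2% of all genes lay at or below it. Its relatives included lower ones: of 6 VEGF ligands and receptors past the filter, 2 were at least 1.5-fold lower and 0 higher. These were Pgf, placental growth factor, at -0.93 (325.9 on the Tmem132a siRNA array, 618.7 on the control siRNA array), and Vegfd at -0.70 over 3 probe sets that ranged from -1.21 to -0.41. Vegfd was under 1.5-fold with a pseudocount (-0.43), by its brightest probe set (-0.41) and by the median of its probe sets (-0.49).

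Bnip3 encodes a mitochondrial outer membrane protein that recruits the autophagy machinery to mitochondria. Its only probe set, 1422470_at, had a signal of 7846.2 on the Tmem132a siRNA array and 12893.5 on the control siRNA array (60.9% of control, log2 ratio -0.72). At this brightness ratios spread little: among 531 probe sets of like signal, the 5th and 95th percentiles were -0.52 and 0.39, and 9 (1.69%) lay at or below the ratio of Bnip3. The list of mitophagy receptors and BCL2 relatives, which also holds Map1lc3b, Gabarapl1, Pink1 and Rheb, went both ways. Of 11 past the filter, 2 were at least 1.5-fold lower, Bcl2 (-0.78) and the receptor gene Fkbp8 (-0.77), and 2 at least 1.5-fold higher, the LC3 relative Gabarapl1 (0.76) and the survival gene Bcl2l1 (0.74). The median of the 11 was 0.06. Bcl2 was under 1.5-fold with a pseudocount (-0.49), by its brightest probe set (-0.43) and when probe sets with x, s or a suffixes were left out (-0.43), and Bcl2l1 with no filter (0.37) and with a pseudocount (0.54).

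Hilpda encodes a small lipid droplet protein that inhibits the triglyceride lipase ATGL. Its probe set, 1421031_a_at, read 219.2 on the Tmem132a siRNA array and 419 on the control siRNA array (52.3% of control, -0.93). Ratios as low or lower occurred in 154 of 4077 probe sets of like signal (3.78%). The other lipid droplet genes did not share that direction: all 5 past the filter had a ratio above 0, 0 reached 1.5-fold either way, and the 2 farthest from 0 were Abhd5, a coactivator of ATGL (0.45), and Plin2, a droplet coat protein (0.27).

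**Figure D2:**
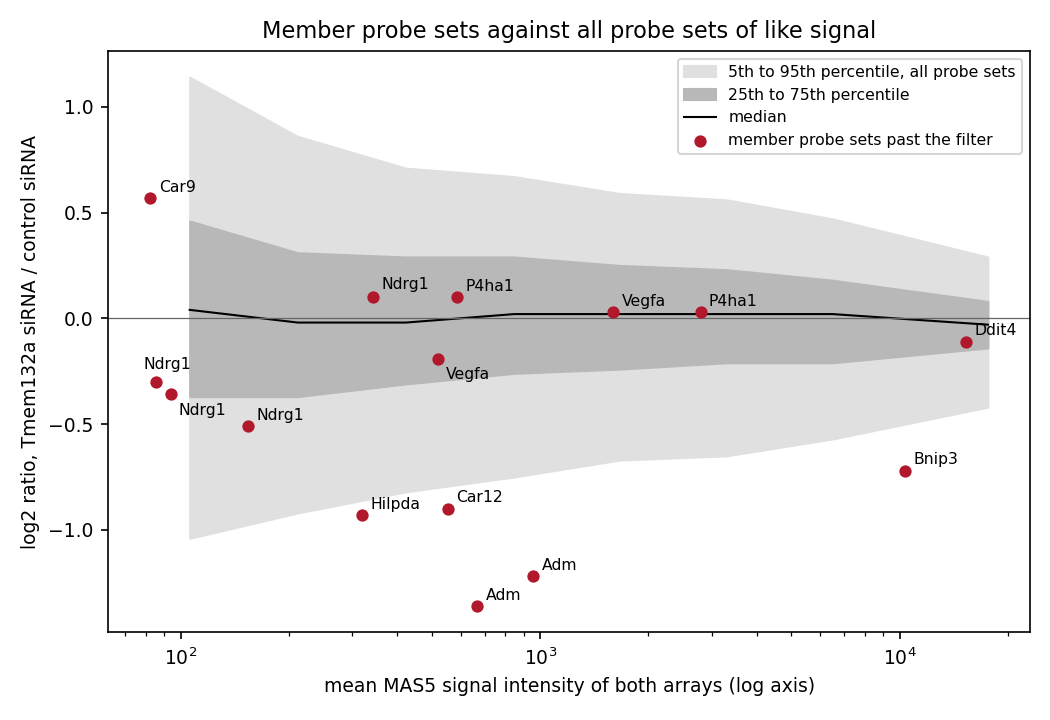
Log2 ratio (Tmem132a siRNA over control siRNA) of the 15 member probe sets past the filter against their mean signal (log axis), over bands that hold the middle 90% (light) and middle 50% (dark) of all probe sets past the filter in bins of signal, drawn between the bin centres. Both Adm probe sets and Bnip3 lie below the light band, Hilpda and Car12 just under its lower edge, and Vegfa, P4ha1 and Ddit4 inside the dark band.

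Ddit4 (also REDD1) restrains the growth kinase complex mTORC1 through TSC1 and TSC2. Its probe set, 1428306_at, had a signal of 14711.2 on the Tmem132a siRNA array and 15900.4 on the control siRNA array (92.5% of control, -0.11). The difference was within the spread of probe sets of like signal, whose 5th and 95th percentiles were -0.51 and 0.32. The 12 other regulators of this pathway past the filter stayed within 1.5-fold too, 10 of them above 0, with Mtor at 0.48 and the stress-induced Sesn2 at 0.40 farthest from 0.

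Ndrg1 is a stress-induced gene of the NDRG family whose human form is needed for the myelin of peripheral nerves. Among the members with several probe sets past the filter, it varied most between them. Its brightest probe set, 1420760_s_at, read 354.4 on the Tmem132a siRNA array and 329.6 on the control siRNA array (0.10). The other 3 past the filter had ratios below 0: 1456174_x_at had 127.3 on the Tmem132a siRNA array and 181 on the control siRNA array (-0.51). With the Tmem132a siRNA 1423413_at had 82 and with the control siRNA 105.1 (-0.36), and 1450976_at had 76.3 with the Tmem132a siRNA and 93.8 with the control siRNA (-0.30). A further probe set below the filter, 1450977_s_at, read 21.3 on the Tmem132a siRNA array and 83.2 on the control siRNA array (-1.97), and 289 of 6462 probe sets as dim (4.47%) reached that ratio or a lower one. The gene value was -0.26 (SD 0.26 over 4 probe sets), and the bright probe set alone would place the gene slightly above the control. That SD was below the 0.39 found over all genes with several probe sets past the filter. Among its relatives Ndrg2 was lower (-1.03, 213 on the Tmem132a siRNA array and 434.8 on the control siRNA array), while Ndrg4 lay at 0.78 (4472.3 with the Tmem132a siRNA, 2758 with the control siRNA).

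Car9 and Car12 encode membrane carbonic anhydrases that face the outside of the cell and convert carbon dioxide to bicarbonate and protons. Their ratios had opposite signs, with Car9 at a signal close to the filter. Car12 read 387.4 on the Tmem132a siRNA array and 721.2 on the control siRNA array by 1428485_at (53.7% of control, -0.90), and 131 of 3853 probe sets of like signal (3.40%) were as low or lower. Its 2 other probe sets were too dim to pass the filter: 1447762_x_at had 23.9 on the Tmem132a siRNA array and 80.1 on the control siRNA array, and 1446517_at had 3.7 with the Tmem132a siRNA and 19.7 with the control siRNA. All 3 were thus lower on the Tmem132a siRNA array, and the last is below the floor of 14.5 there, so that its ratio is only a bound.

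Car9 went the other way at a signal close to the filter. Its probe set, 1427013_at, read 98.3 on the Tmem132a siRNA array and 66.2 on the control siRNA array (log2 ratio 0.57), and 24.9% of 5323 probe sets of like signal were as high or higher. The control signal lay below the filter value of 77.25, so Car9 passed only through the array where it was higher. It is also the member nearest the 1.5-fold line without reaching it. Of 14 other carbonic anhydrases with a probe set, 4 passed the filter, and 1 of them, the secreted Car6, was past 1.5-fold, at 1.22 (485.7 with the Tmem132a siRNA, 208.5 with the control siRNA), followed by Car7 at 0.44. Of 4 pH transporters past the filter, 3 were at least 1.5-fold lower, the anion exchanger Slc4a2 at -1.28, the lactate carrier Slc16a3 at -0.71 and its chaperone Bsg (basigin) at -0.69.

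P4ha1 encodes a catalytic alpha subunit of the collagen prolyl 4-hydroxylase, which acts in the ER and is distinct from the prolyl hydroxylases that mark HIF. Its signals were close on both arrays: 1452094_at read 2823.5 on the Tmem132a siRNA array and 2763.5 on the control siRNA array (0.03), and 1426519_at read 607 on the Tmem132a siRNA array and 565 on the control siRNA array (0.10). Of 9 other genes past the filter in the list of collagen hydroxylases and their partner proteins (P4hb, Crtap), 8 had a ratio below 0. In this list 2 were at least 1.5-fold lower and 1 was at least 1.5-fold higher. The lysyl hydroxylase Plod2 lay at -1.22 over 2 probe sets (brightest 2677.6 on the Tmem132a siRNA array and 6003.8 on the control siRNA array) and the prolyl 3-hydroxylase P3h3 at -0.89. P4ha2, the closest relative of P4ha1, lay at -0.39, and the higher one was P4htm (1.08), a transmembrane prolyl hydroxylase that is not known for acting on collagen.

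Further HIF targets outside glycolysis, 33 of 45 genes with a probe set past the filter, had a median of -0.34, with 24 below 0, 8 at least 1.5-fold lower and 1 at least 1.5-fold higher. Plod2, Ccng2 (-0.89), Narf (-0.87) and Egln1 (-0.67) were among the lower, while Ndufa4l2, a mitochondrial protein, was higher at 1.10, from a dim probe set (163 on the Tmem132a siRNA array, 75.8 on the control siRNA array). Egln3 (0.52) and Ero1a (-0.48) did not reach 1.5-fold, and the 3 probe sets of Ero1a ran from -0.97 to 0.28. The 18 glycolytic HIF targets past the filter had a median of -0.28, with 5 at least 1.5-fold lower and 0 higher, led by Slc2a1 (-1.04), Pdk1 (-0.88), Aldoc (-0.77) and Slc16a3. For Pdk1, the 4 probe sets ran from -1.5 to -0.45. Over all genes, 48.2% were below 0, 9.11% at least 1.5-fold lower and 8.82% at least 1.5-fold higher. The members' median of -0.26, with a range from -1.29 for Adm to 0.57 for Car9, stood beside ranges of -1.22 to 1.10 for the other targets and -1.04 to 0.08 for the glycolytic ones, and the difference between the lists was not tested. Of the HIF subunits and oxygen sensors, 8 passed the filter, with Hif1a itself at -0.82 over 3 probe sets (brightest 2845.1 on the Tmem132a siRNA array and 5542.4 on the control siRNA array), Arnt at 0.08 and Epas1 too dim to pass. The lists are not separate sets. Egln1 and Egln3 are in this list and among the further targets. P4ha2, Plod1 and Plod2 are also collagen hydroxylases, and Slc16a3 is also a pH transporter. Rheb is in both the mitophagy list and the list of mTORC1 regulators. The sympathetic markers above also had ratios below 0 (13 of 13), and their part in the result was not tested.

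**Figure D3:**
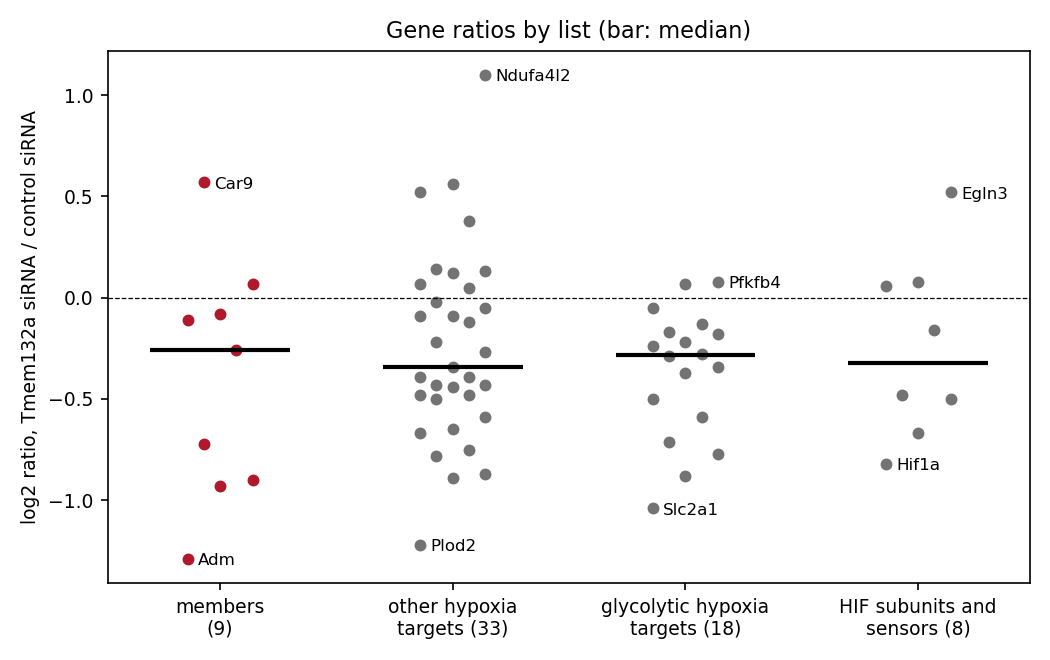
Log2 ratios (Tmem132a siRNA over control siRNA) of genes past the filter in 4 lists, 1 point per gene, with the median of each list as a bar and the lowest and highest gene named. Medians lie at -0.26 for the members, -0.34 for other hypoxia targets, -0.28 for glycolytic targets and -0.32 for HIF subunits and sensors. Egln1 and Egln3 are in both the other hypoxia targets and the HIF subunits and sensors.

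The members' ratios were next recomputed under 11 other settings of scaling, filter, floor and probe-set choice. Adm, Bnip3 and Car12 stayed at least 1.5-fold lower in 11 of 11 settings and Hilpda in the 9 that gave it a value. Several settings could hardly move these values: the arrays already shared a trimmed mean, and these signals lay above the floor. Bnip3, Hilpda and Car12 each had 1 probe set past the filter, so the brightest and the median gave the same value. All settings reuse the same pair of arrays and say nothing about replicates. Adm ranged from -1.36 to -1.16, Bnip3 from -0.72 to -0.67, Hilpda from -0.94 to -0.74 and Car12 from -1.03 to -0.78. Ddit4 (-0.12 to -0.06) and P4ha1 (0.03 to 0.07) kept their sign and stayed under 1.5-fold. Vegfa ran from -0.09 to 0.03 and changed sign by its brightest probe set and when x, s and a probe sets were left out. Ndrg1 moved most, from -0.61 with no filter to 0.10 by its brightest probe set. Car9 stayed above 0 in 10 of 10 settings, from 0.29 with a pseudocount to 0.57.

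**Figure D4:**
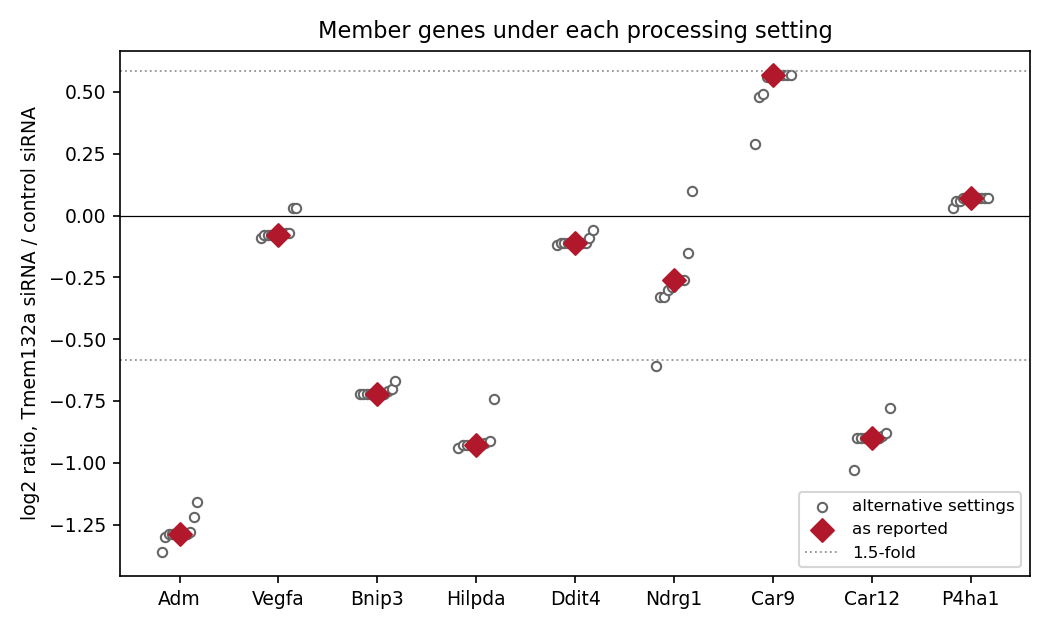
Log2 ratio (Tmem132a siRNA over control siRNA) of the 9 genes as reported (diamonds) and under up to 11 alternative settings (open circles), with dotted lines at 1.5-fold. Adm, Bnip3, Hilpda and Car12 lie below the lower dotted line throughout, Ndrg1 crosses both it and 0, and Vegfa, Ddit4 and P4ha1 stay near 0.

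HIF binds the core letters ACGTG or GCGTG, and the windows around the members' start sites were searched for both cores on both strands. A match is a description and not a site that was shown to bind. RefSeq windows (GRCm38.p6) of 300 bases, from 250 before to 50 after a start site, were found for 8 of the 10 genes, 10 windows in all. By window, the cores occurred in 8 of the members' 10, where 43.8% of all 32851 promoter windows held either (19.6% ACGTG and 32.4% GCGTG). The windows of Hilpda overlap and share 1 match. By gene, 7 of the 8 members had a core in some window, as did 69.2% of the 8713 measured genes with a window. Overlapping matches on both strands, as in CACGTG, were counted on each strand. Among these 8713 genes, the 6028 that held a core had a median log2 ratio of 0.02 and 8.18% were at least 1.5-fold lower, against 0.01 and 10.7% for the 2685 without.

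The upstream parts of 4 windows are printed 5′ to 3′ on the gene's strand with the cores in capitals. They set 2 lower members (Adm, Bnip3) beside 1 that was level (Ddit4) and 1 that was higher by under 1.5-fold (Car9). They are Adm at chr7:110627407-110627656 (plus strand), Bnip3 at chr7:138909507-138909756 (minus strand), Ddit4 at chr10:59951771-59952020 (minus strand) and Car9 at chr4:43506776-43507025 (plus strand).
Adm: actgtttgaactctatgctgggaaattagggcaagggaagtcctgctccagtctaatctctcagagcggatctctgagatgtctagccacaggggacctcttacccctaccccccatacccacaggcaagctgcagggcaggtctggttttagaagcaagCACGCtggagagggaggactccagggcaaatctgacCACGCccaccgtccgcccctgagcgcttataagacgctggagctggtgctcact
Bnip3: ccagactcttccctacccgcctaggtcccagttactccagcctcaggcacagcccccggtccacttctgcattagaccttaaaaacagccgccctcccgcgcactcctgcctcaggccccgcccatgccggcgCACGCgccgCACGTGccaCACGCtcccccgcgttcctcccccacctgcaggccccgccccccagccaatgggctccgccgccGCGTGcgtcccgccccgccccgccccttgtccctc
Ddit4: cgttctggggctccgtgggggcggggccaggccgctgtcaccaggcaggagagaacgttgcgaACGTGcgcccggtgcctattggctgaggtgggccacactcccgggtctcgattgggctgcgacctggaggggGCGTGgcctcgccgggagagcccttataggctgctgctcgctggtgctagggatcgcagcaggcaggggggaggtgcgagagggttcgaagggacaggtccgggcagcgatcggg
Car9: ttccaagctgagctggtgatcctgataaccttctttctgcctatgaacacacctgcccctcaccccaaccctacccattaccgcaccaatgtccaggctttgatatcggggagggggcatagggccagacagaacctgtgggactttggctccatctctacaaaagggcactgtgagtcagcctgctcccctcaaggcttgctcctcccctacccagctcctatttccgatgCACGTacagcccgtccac

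Bnip3 held 5 matches in its window, 2 of them from the palindrome CACGTG that begins 108 bases before the start site. Adm held 2, both GCGTG on the opposite strand, at 90 and 54 bases before the start. Ddit4, level on the arrays, held 2, and Car9 held 1, which begins 18 bases before its start. P4ha1, also level, held 3 in its only window, which is at an inner start, meaning a start site other than the annotated gene start. The only window of Car12, which was lower, is also at an inner start and held 0. The outer starts of P4ha1 and Car12 thus had no window of their own, and their distance from the inner starts was not measured. The window at the outer start of Vegfa held 0, while its inner window held 2. Members with a core thus included lower genes, level genes and Car9. The ratio of Car9 was above 0 but under 1.5-fold and within the spread of probe sets of like signal.

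**Figure D5:**
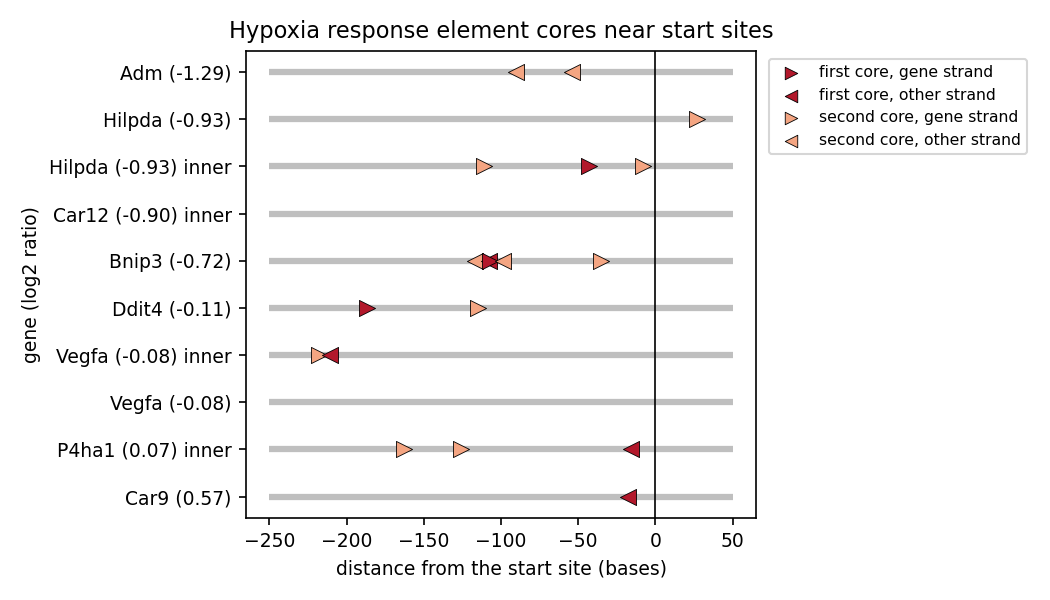
Positions of the cores ACGTG (first core) and GCGTG (second core) in the 10 windows of 8 genes, ordered by log2 ratio, with the distance of each match's first base from the start site and arrows for strand. Windows marked inner are at a start site other than the annotated gene start. Matches lie in windows of lower (Adm, Hilpda, Bnip3) and level (Ddit4, P4ha1) genes and of Car9, which was higher by under 1.5-fold. None lies in the only Car12 window, which is at an inner start.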

How the data were processed

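Signals of 2 arrays, 1 per group, were used, grouped by sample title. Each deposited value is the linear signal intensity of a probe set, which the authors computed with MAS5 according to the submitters' processing notes; the version, the scaling and the detection calls are not given in the sources used here. The number of arrays limits precision, and no test was made. Lists, members and alternatives were chosen with earlier results of these data known.

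Of 45101 probe sets, 64 controls were left out. By the platform annotation, 34945 had 1 gene symbol, 932 several and 9160 none listed; 34741 matched the GRCm38.p6 gene table by Entrez identifier, and 0 symbols changed. The arrays were rescaled to 1 common 2% trimmed mean, and signals under the 20th percentile (14.5) were raised to it. Probe sets with a mean signal at or above the median (77.25) passed, 22519 in all. A gene's value is the mean log2 ratio of its probe sets past the filter. Over 5072 genes with at least 2 such probe sets, the SD of probe sets around their gene's mean was 0.39. Probe sets of like signal are those with a mean signal within a factor of 1.41 either way. Named were all members, Tmem132a, and in each list the members at least 1.5-fold different (up to 4 by size) or, where fewer than 2 were, the 2 with the largest ratio in size, with Hif1a, Epas1, Arnt, Egln1, Egln3, Ero1a, P4ha2, Plod2, Slc2a1 and Pdk1 always. Alternatives were other scaling (none, median 0, quantile, loess with a span of 0.3), no filter, a 75th percentile filter (462.8), no floor, a pseudocount of 79.2, the brightest probe set, the median of probe sets, and no x, s or a probe sets. The procedure was tested on simulated data with little added noise and with changes placed only in genes that had a bright probe set. That test does not cover dim genes. Python 3.11.15, numpy 2.4.6, pandas 2.3.3, statsmodels 0.14.6 and matplotlib 3.10.9 were used.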

Additional observations from a re-analysis of the deposited data

How the results depend on the processing

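Over the 11 alternative settings the counts of members below 0, at least 1.5-fold lower and at least 1.5-fold higher stayed within 1.5 times the reported ones. With no filter, 2 members were at least 2-fold lower, the median of the members was -0.61, and 2 other hypoxia targets were at least 1.5-fold higher. With the 75th percentile filter only 6 members were measured, with a median of -0.41, and 0 other hypoxia targets were at least 1.5-fold higher. By the brightest probe set the median was -0.11. With a pseudocount of 79.2, which shrinks ratios by construction, 5 other hypoxia targets were at least 1.5-fold lower. The cause of the other shifts was not tested. Among the further genes named, Narf had -0.25 with no filter, Ndufa4l2 0.64 with the pseudocount, Ero1a 0.28 and Arnt -0.39 by the brightest probe set, and Arnt -0.39 with the 75th percentile filter. Adm2 (0.56 with the pseudocount) and Egln1 (-0.53 by the brightest probe set) were then under 1.5-fold, while Car7 (0.62) passed it by the brightest probe set and by the median of probe sets, and Ero1a (-0.74) by the median of probe sets. Among probe sets past the filter, ratios spread most at signals near it, where Car9 and the Ndrg1 probe sets 1423413_at and 1450976_at lie. No paired analysis was possible because each group has 1 array.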
